A study of Mus musculus with 4 samples.

Results

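The genes described here encode the proteasome and its regulators, taken as every row of the count tables whose symbol starts with Psm, a letter from a to g and a digit. That rule found 49 of the 16342 genes listed in any table, and all 4 tables listed all 49. The cells came from the corpus callosum, the main white matter tract of the brain, of male C57BL/6 mice aged 13 weeks, and were sorted as live, nucleated and positive for the myeloid surface protein CD11b. Untreated mice gave 2 libraries (week 0) and mice on cuprizone gave 2 (week 5); cuprizone binds copper, kills oligodendrocytes and strips white matter of myelin. Separate animals are not stated for the libraries, so each p-value reflects spread among these samples only, and that spread may be technical.

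The proteasome cuts proteins marked with ubiquitin into peptides. Its barrel, the 20S core, has outer rings of alpha subunits and inner rings of beta subunits, of which Psmb5, Psmb6 and Psmb7 carry the cutting sites. The 19S cap binds ubiquitin and unfolds the substrate. In cells exposed to interferon, Psmb8, Psmb9 and Psmb10 can take the places of Psmb5, Psmb6 and Psmb7 in newly built cores, which are then called immunoproteasomes. Psme1 and Psme2 encode the chains of PA28, a ring that can cap the core in place of 19S. Both changes are known for their part in making peptides for MHC class I. Of the 49 genes, 31 encode constitutive subunits of the core and the 19S cap, and 5 are Psmb8, Psmb9, Psmb10, Psme1 and Psme2. The other 13 encode assembly chaperones and other regulators, or are Psma8 (an alpha subunit of the testis), Psme2b (a near copy of Psme2) and Psmc3ip, which only shares the symbol.

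The libraries held 2353156 and 4442246 unique molecular identifiers (UMIs, 1 for each captured transcript) in 926 and 905 cells at week 0, and 6484047 and 3259863 UMIs in 962 and 914 cells at week 5, in replicates 1 and 2. The median cell had 1527 and 3919 UMIs at week 0 against 6133.5 and 2495.5 at week 5. All 10 microglia markers had UMIs in every library. They summed to 34740 and 41640 CPM (UMI counts scaled to a common library total) in the week 0 libraries and to 25370 and 29680 CPM at week 5. Markers of T and NK cells summed to 0 CPM in both week 0 libraries, 0.617 CPM in week 5 replicate 1 and 139 CPM in week 5 replicate 2. Neutrophil markers went the other way, with 0 and 293 CPM in the week 0 libraries and 0.463 and 0 CPM at week 5. Markers of choroid and ependymal cells summed to 801 and 0.9 CPM in the week 0 libraries and 1906 and 2048 CPM at week 5. Markers of border-associated macrophages summed to 356 and 27.01 CPM and to 356 and 218 CPM in the same order. Of all barcodes, 6 were found in more than 1 table. In sums over cells, fewer cells of a type and less RNA per cell cannot be told apart.

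The question put to these genes was whether the induced subunits and the constitutive ones differ alike between week 5 and week 0. UMIs were summed over all cells of a library and compared with edgeR's quasi-likelihood test, in which genes with a Benjamini-Hochberg adjusted p under 0.05 over all 11247 genes tested count as changed. By that test, 302 genes changed (2.69%), 274 upward (2.44%) and 28 downward (0.249%). The upward share of the calls was 90.7%, against 76.6% of the 380 calls (3.38%) made with library size alone as the scaling. All 49 proteasome genes were tested and 0 of them passed. In simulated counts with known changes, the same fit recovered 7.76% of 1.5-fold changes and 53.4% of 2-fold changes. These rates hold for genes with a log2 CPM of at least 5. Changes of this size can thus be missed, and a gene that did not pass is not shown to be unchanged. Of the 49, 7 had an unadjusted p under 0.05, all higher at week 5, against 9.49% of all genes. DESeq2 called 2 of the 49 and limma-voom 0, against 3.96% and 2.17% of all genes. Both week 5 libraries lay above both week 0 libraries for 16 of the 49 genes (32.7%, against 21.0% of all genes), and below them for 3 (against 22.2%).

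For all 5 genes of the immunoproteasome and PA28 both week 5 libraries lay above both week 0 libraries, against 21.0% of all genes. For Psmb10 this depended on the scaling, and none of the 5 passed the test. Their median log2 fold change was 0.78, against 0.16 for the 31 constitutive subunits and -0.01 for all genes tested. The values below are CPM relative to the effective library size, which includes edgeR's TMM factor (1.088, 1.074, 0.8399 and 1.019 for week 0 replicates 1 and 2 and week 5 replicates 1 and 2).

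Psmb8, which replaces Psmb5, was at 152 and 169 CPM in the week 0 libraries and at 349 and 248 CPM in those of week 5. The groups did not overlap, and week 5 replicate 1 was the highest. The fold was 1.86 (95% interval 1.25 to 2.78; log2 fold change 0.90, SE 0.26, edgeR adjusted p = 0.122). Psmb9, which replaces Psmb6, was at 70.2 and 66.0 CPM in the week 0 libraries and at 125 and 108 CPM in those of week 5, again without overlap. Its fold was 1.72 (1.25 to 2.36; log2 fold change 0.78, SE 0.21, edgeR adjusted p = 0.0905, the lowest of the 49 genes). Psmb10, which replaces Psmb7, was at 83.5 and 77.2 CPM in the week 0 libraries and at 105 and 84.3 CPM in those of week 5. Its libraries lay close together, with a log2 fold change of 0.24 (SE 0.21, edgeR adjusted p = 0.722). As CPM of total UMIs, without the TMM factor, Psmb10 was at 90.5 and 82.6 in the week 0 libraries and 87.9 and 85.6 at week 5. The groups then overlapped, and with library size alone as the scaling its log2 fold change was 0.006.

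Psme1, the alpha chain of PA28, was at 198 and 184 CPM in the week 0 libraries and at 451 and 294 CPM in those of week 5. Its log2 fold change of 0.97 was the highest of the 49 genes (SE 0.28, edgeR adjusted p = 0.122). Psme2, the beta chain, was at 80.8 and 89.6 CPM in the week 0 libraries and at 176 and 115 CPM in those of week 5 (log2 fold change 0.77, SE 0.25, edgeR adjusted p = 0.173). For both chains the week 5 values lay above the week 0 values, and replicate 1 was the higher week 5 library. Psme2b, a near copy of Psme2 between which reads may be split, was at 43.9 and 45.4 CPM in the week 0 libraries and at 43.1 and 43.5 CPM in those of week 5.

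The counterparts that these subunits replace overlapped more. Psmb5 was at 71.4 and 86.2 CPM in the week 0 libraries and at 111 and 83.1 CPM in those of week 5 (log2 fold change 0.30, SE 0.23, edgeR adjusted p = 0.668). Psmb6 was at 76.1 and 100.3 CPM and then at 150 and 98.8 CPM (log2 fold change 0.50, SE 0.26, edgeR adjusted p = 0.463). Psmb7 was at 53.3 and 50.3 CPM and then at 82.3 and 54.7 CPM (log2 fold change 0.41, SE 0.24, edgeR adjusted p = 0.521). Week 5 replicate 2 lay among the week 0 values for Psmb5 and Psmb6 and just above them for Psmb7.

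**Figure D1:**
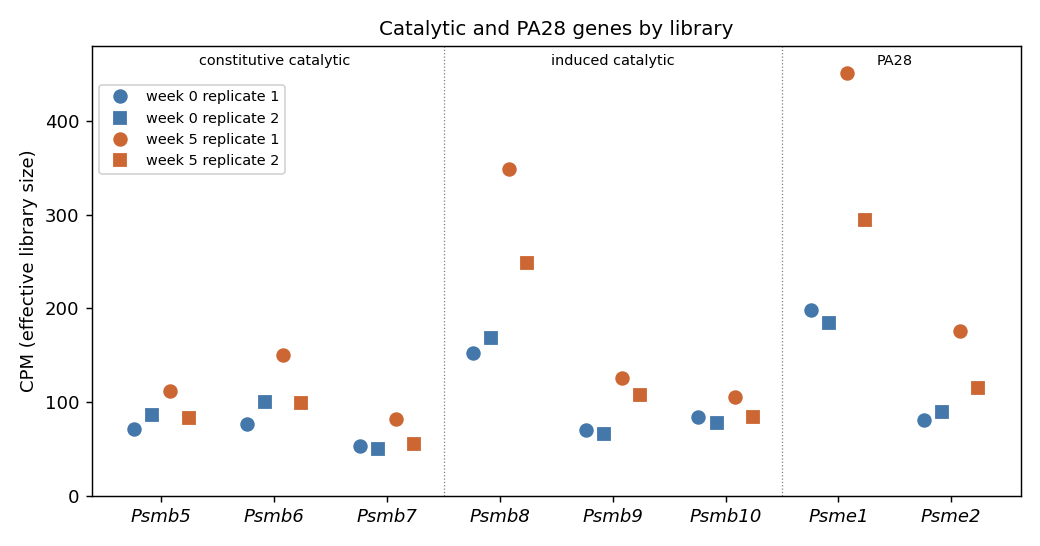
Level of the 3 constitutive catalytic subunits, the 3 induced ones and the PA28 chains in each library, in CPM of the effective library size (vertical axis from 0); circles are replicate 1, squares replicate 2, blue week 0 and orange week 5. Psmb8, Psmb9, Psme1 and Psme2 have both orange points clear above both blue points, while Psmb5 and Psmb6 overlap.

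The number of calls turned on week 5 replicate 2. Without it, 11 of the 49 genes passed, all higher at week 5, but so did 1341 of 11874 genes (11.3%). They were Psmb8 (log2 fold change 1.16, edgeR adjusted p = 0.000578), Psmb9 (0.93, 0.00309), Psme1 (1.28, 0.000257), Psme2 (1.08, 0.000519), Psmg4 (1.23, 0.000491) and 6 constitutive subunits, Psma5, Psma7, Psmb1, Psmb4, Psmb6 and Psmb7 (0.71 to 0.97). The lone week 5 library is then assumed to vary like the week 0 pair. Leaving out week 0 replicate 1, week 0 replicate 2 or week 5 replicate 1 gave 0 of 49, with 4.51%, 2.28% and 2.83% of all genes called. DESeq2's test, with 445 genes called (3.96%), called Psmb8 (adjusted p = 0.0224) and Psme1 (0.0140). With no filter on low genes edgeR called Psmb8, Psmb9, Psme1 and Psmg4 and 5.75% of all genes, and with a common limit of 2996 genes per cell Psmb8, Psmb9 and Psme1 and 4.59% of all genes. It called 0 of the 49 with no cell filter (2.88% of all genes), doublets kept (2.70%), thinned cells (2.14%), cells with markers of other types removed (2.90%), clusters led by such markers removed (3.36%), shallow clusters removed (0.97%) or the replicate number as a block (3.37%).

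The genes of each pair lie together in the genome (GRCm38). Psmb8 (chromosome 17, 34197721 to 34201454, plus strand) and Psmb9 (34181987 to 34187764, minus strand) stand 9956 bases apart in the MHC class II region, with Tap1, which carries peptides into the endoplasmic reticulum, between them. Psme1 (chromosome 14, 55578123 to 55581529, plus strand) and Psme2 (55587441 to 55591113, minus strand) stand 5911 bases apart. Psmb10 is on chromosome 8 (105935735 to 105938444, minus strand). Psmb9 overlaps Tap1, Psmb8 overlaps Gm20496, Psmb10 overlaps Gm16156 and Psme1 overlaps Emc9, each on the opposite strand. The sources used here do not say whether counting was by strand, so reads of these overlapping partners may be mixed.

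The windows from 250 bases before to 50 bases after the annotated start (RefSeq, GRCm38.p6) are shown for the 4 genes with the highest log2 fold changes, because motifs of interferon signalling were looked for in them; the choice was made after the values were seen. Capitals mark matches, on either strand, to the core of the interferon-stimulated response element (GAAA, any 2 bases, GAAA) or of the STAT element (TTC, any 3 bases, GAA).
Psmb8 (chr17:34197945-34198244, plus strand): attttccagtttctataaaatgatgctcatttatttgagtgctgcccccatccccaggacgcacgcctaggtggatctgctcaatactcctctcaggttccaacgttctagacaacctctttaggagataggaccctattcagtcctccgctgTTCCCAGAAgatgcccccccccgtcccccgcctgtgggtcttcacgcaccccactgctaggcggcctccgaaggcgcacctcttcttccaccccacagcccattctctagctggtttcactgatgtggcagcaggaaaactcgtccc
Psmb9 (chr17:34187281-34187580, minus strand): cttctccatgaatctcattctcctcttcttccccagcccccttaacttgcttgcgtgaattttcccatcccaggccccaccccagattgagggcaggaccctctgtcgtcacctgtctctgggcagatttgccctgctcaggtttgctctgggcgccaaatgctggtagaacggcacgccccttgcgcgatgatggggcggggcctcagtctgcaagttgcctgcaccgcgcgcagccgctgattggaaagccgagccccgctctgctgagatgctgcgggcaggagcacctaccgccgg
Psme1 (chr14:55578244-55578543, plus strand): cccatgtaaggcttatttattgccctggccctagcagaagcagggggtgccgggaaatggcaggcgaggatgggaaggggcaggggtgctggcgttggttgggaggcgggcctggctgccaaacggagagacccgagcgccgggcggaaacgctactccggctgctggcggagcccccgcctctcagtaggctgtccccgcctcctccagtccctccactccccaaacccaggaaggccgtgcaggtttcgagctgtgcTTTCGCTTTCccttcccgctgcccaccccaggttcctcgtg
Psmg4 (chr13:34162714-34163013, plus strand): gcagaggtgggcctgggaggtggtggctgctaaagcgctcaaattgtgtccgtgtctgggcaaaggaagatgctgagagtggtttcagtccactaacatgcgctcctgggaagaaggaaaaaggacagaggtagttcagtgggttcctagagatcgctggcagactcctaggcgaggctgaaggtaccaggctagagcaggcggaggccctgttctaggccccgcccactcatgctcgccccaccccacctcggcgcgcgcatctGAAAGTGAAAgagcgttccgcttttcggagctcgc

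Of the 49 genes, 41 had a window. The first motif was found in a window of 5 of them (12.2%), against 3.99% of all 27025 genes with a window, and the second in 3 (7.32%), against 9.55%. Of all 32851 windows, 3.44% held the first and 8.30% the second. The matches to the first were in Psme1, Psmg4, Psmd4, Psmd9 and Psmb3, and to the second in Psmb8, Psmd2 and Psmg1. Counted from the RefSeq start, the match in Psme1 began at base 10 after it and that in Psmg4 at base 16. The match in Psmb8 began 97 bases before it. For Psmb8, Psmb9 and Psme1 the RefSeq start lies inside the gene span given above. The Psmb8 match (34198098 to 34198106) thus also lies inside the span given for Psmb8. The Psmb9 window held neither, and 275 of its 300 bases are shared with the window of Tap1, which is read the other way. These are matches of letters and not sites of binding.

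Among the other core subunits, the alpha ring genes Psma1 to Psma7 had log2 fold changes from 0.11 (Psma3) to 0.66 (Psma5), with a median of 0.20. Psma5 was at 51.4 and 54.7 CPM in the week 0 libraries and at 99.8 and 67.7 CPM in those of week 5 (SE 0.23, edgeR adjusted p = 0.214). The structural beta genes Psmb1, Psmb2, Psmb3 and Psmb4 had a median of 0.37, from 0.28 (Psmb3) to 0.63 (Psmb1). Psmb1 was at 102 and 113 CPM in the week 0 libraries and at 205 and 128 CPM in those of week 5 (SE 0.26, edgeR adjusted p = 0.315). In both genes the groups did not overlap, and the gap rested mostly on week 5 replicate 1.

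The 19S cap lay closer to 0. Its ATPase genes Psmc1 to Psmc6, which unfold substrates, had a median log2 fold change of 0.12, from -0.04 (Psmc1) to 0.21 (Psmc6). The 11 non-ATPase genes, Psmd1 to Psmd4, Psmd6 to Psmd8 and Psmd11 to Psmd14, had a median of 0.00, from -0.22 (Psmd3) to 0.30 (Psmd8). Psmd4, which encodes a ubiquitin receptor, was at 104 and 143 CPM in the week 0 libraries and at 132 and 117 CPM in those of week 5. Psmd14, which encodes the enzyme that removes ubiquitin from the substrate, was at 38.8 and 37.0 CPM and then at 51.4 and 31.7 CPM. Psmd4 and Psmd14 overlapped between groups, as did 10 of the 11 genes, the exception being the scaffold subunit Psmd2, which was higher in both week 5 libraries (1 of 11, against 21.0% of all genes).

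Over all 31 constitutive subunits the summed level was 2383 and 2646 CPM in the week 0 libraries and 3300 and 2497 CPM at week 5, so the groups overlapped. Of the 31, 25 had a log2 fold change above 0, as did 5465 of all 11247 genes tested. With library size alone as the scaling, several of these 25 turned below 0. Of the 31, 8 did not overlap, all of these higher at week 5 (25.8%, against 21.0% of all genes). The direction of their median depended on the scaling and on 1 library: it was -0.07 with library size alone as the scaling, when the median of all genes was -0.24, -0.03 without week 5 replicate 1 and 0.40 without week 5 replicate 2. The median of the 5 induced and PA28 genes was 0.55, 0.63 and 1.08 under these settings.

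Of the assembly chaperones, which hold part-built rings and caps, Psmg4 stood highest with 29.0 and 26.1 CPM in the week 0 libraries and 62.4 and 35.1 CPM at week 5 (log2 fold change 0.84, SE 0.28, edgeR adjusted p = 0.190). The other 6, Psmg1, Psmg2, Psmg3, Psmd5, Psmd9 and Psmd10, ran from -0.08 (Psmd5) to 0.28 (Psmg2). Psme3 and Psme4, which encode other caps of the core, and the inhibitor Psmf1 had log2 fold changes of 0.18, -0.12 and 0.06. Psma8, an alpha subunit of the testis, and Psmc3ip, a meiotic protein that is no subunit, had few counts. Psma8 was at 5.10 and 4.42 CPM and then at 4.05 and 2.72 CPM (log2 fold change -0.44, SE 0.50, edgeR adjusted p = 0.793). Psmc3ip was at 2.75 and 4.42 CPM and then at 2.03 and 1.51 CPM, with the lowest log2 fold change of the 49 genes (-1.02, SE 0.60, edgeR adjusted p = 0.543). In both genes, as in Psme2b, both week 5 libraries lay below both week 0 libraries.

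**Figure D2:**
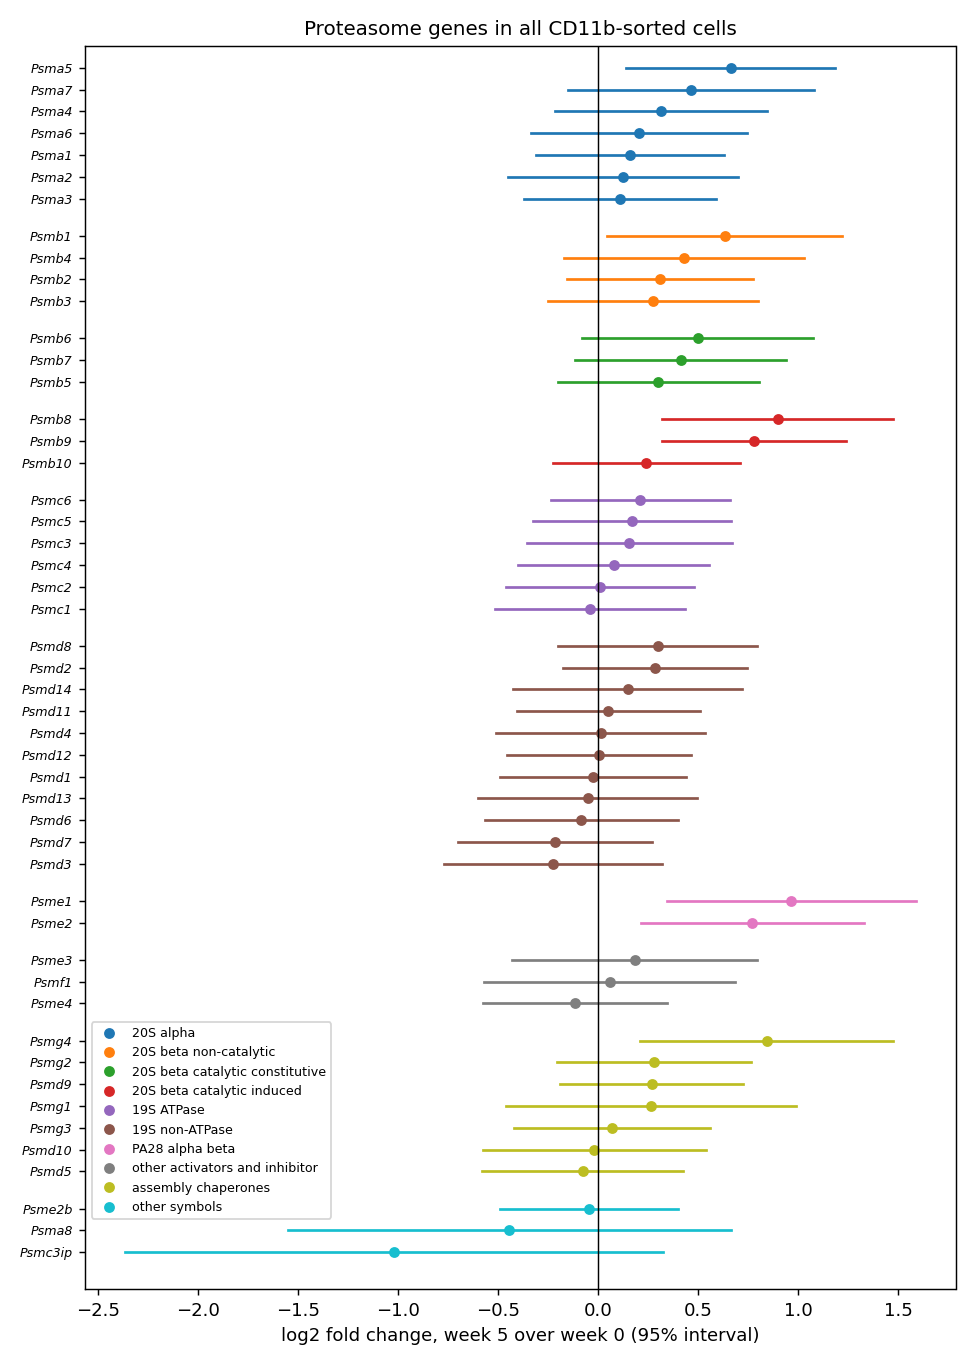
Log2 fold change of all 49 genes, week 5 over week 0, from edgeR on sums over all cells; points are estimates, lines 95% intervals, colours the classes. Psmb8, Psmb9, Psme1, Psme2, Psmg4, Psma5 and Psmb1 have intervals above 0 before any adjustment, and the 19S genes centre near 0.

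The ratio of induced to constitutive catalytic UMIs needs no scaling between libraries. Psmb8, Psmb9 and Psmb10 together had 1.52 and 1.32 times the UMIs of Psmb5, Psmb6 and Psmb7 at week 0, and 1.68 and 1.86 times at week 5. The groups did not overlap, and the mean log2 ratio was 0.32 higher at week 5 (pooled SD 0.13), but with 2 libraries against 2 the two-sided exact permutation test cannot go below p = 0.33. In the UMIs of the 6 genes, the induced ones made up 60.3% (779 UMIs against 512; 95% exact binomial interval 57.6% to 63.0%) and 56.8% (54.9% to 58.8%) at week 0, and 62.7% (61.4% to 64.1%) and 65.0% (63.0% to 67.0%) at week 5; the intervals cover counting error only.

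The 3 pairs gave different values in this measure. Psmb8 over Psmb5 was 2.13 and 1.96 at week 0 and 3.14 and 2.98 at week 5, so the groups were well apart. Psmb9 over Psmb6 was 0.923 and 0.658 and then 0.834 and 1.09, and Psmb10 over Psmb7 was 1.57 and 1.54 and then 1.28 and 1.54, so both overlapped. Week 5 minus week 0, the mean log2 ratio was 0.58, 0.29 and -0.15 for the 3 pairs in this order (pooled SD 0.07, 0.31 and 0.14). Psmb10 over Psmb7 was thus lower on average at week 5, unlike the summed ratio. Whether the 3 pairs differ from one another was not tested. With each cell thinned to 1000 UMIs, which leaves out shallower cells, the summed ratio was 1.84 and 1.13 at week 0 and 1.78 and 2.07 at week 5, and the groups overlapped.

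Depth and other cell types moved with the libraries, and their values stand here beside these results. Cells of 2 shallow clusters, with median UMI counts of 1293.5 and 1088.5, made up 72.8% and 15.8% of the week 0 libraries and 21.9% and 40.0% of the week 5 libraries. Without them Psmb8 was at 213 and 185 CPM in the week 0 libraries and 297 and 279 CPM at week 5 (here and below CPM of the total UMIs in the cells counted), and the summed ratio was 1.43 and 1.32 against 1.67 and 1.81. Over all cells, Psmb8 in this measure was at 164.5 and 180.5 CPM in the week 0 libraries and 292.3 and 251.5 CPM at week 5. The 4 clusters led by markers of other cell types held 24 and 7 cells at week 0 and 51 and 62 cells at week 5. Without these, Psmb8 was at 151 and 177 CPM against 295 and 235 CPM, the summed ratio at 1.48 and 1.31 against 1.73 and 1.78, and the median log2 fold change of the 5 genes at 0.82. The groups thus did not overlap in either setting.

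Cells were next divided by clustering on genes other than these 49, into 13 clusters called by their leading genes. Most clusters were mainly of 1 week, so they describe where induced subunits stood and give no test. The cluster led by the interferon-induced genes Rsad2, Ifit1 and Ifit3 (38 and 33 cells in week 5 replicates 1 and 2) had an induced share of 73.0% in both libraries (67.0% to 78.4% and 65.2% to 79.9%). Psmb9 was at 206 and 171 CPM there, and PA28, as Psme1 plus Psme2, at 733 and 679 CPM, as CPM of those cells alone. The cluster led by Spp1, Fabp5 and Apoc4, genes known from microglia near damaged myelin, had shares of 61.7% (59.7% to 63.7%, 183 cells) and 56.4% (49.7% to 62.9%, 38 cells), with PA28 at 619 and 629 CPM. Psmb8, Psmb9 and Psmb10 summed to 545 and 629 CPM in that cluster, against 733 and 633 CPM in the Rsad2-led one. Psmb5, Psmb6 and Psmb7 summed to 338 and 486 CPM against 271 and 234 CPM. The cluster led by the chemokine genes Ccl4 and Ccl3 had lower shares, 52.6% (46.2% to 59.0%) and 50.7% (42.1% to 59.3%), and PA28 at 387 and 423 CPM.

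In the clusters with at least 15 cells in all 4 libraries, every week 0 counting interval overlapped every week 5 interval of the same cluster. Many of these intervals are wide, so the overlap does not show that the weeks are alike. In the cluster led by Gp9, Pnp and Ecscr the induced share was 57.2% and 56.7% at week 0 and 59.2% and 61.9% at week 5. In that led by Camk2n1 and Slc2a5 it was 58.2% and 57.1% and then 48.4% (19 cells; 35.5% to 61.4%) and 62.4%. In the larger shallow cluster it was 66.0% and 54.2% at week 0 and 67.0% and 71.3% at week 5, and in the smaller one 60.0% (43.3% to 75.1%) and 46.7% (21.3% to 73.4%) and then 83.9% (66.3% to 94.6%) and 79.2% (65.0% to 89.5%). Both week 5 shares thus lay above both week 0 shares in the Gp9-led cluster and in both shallow clusters, but not in the Camk2n1-led one. The week 5 clusters led by Gm11808 and H2-D1 (66.1% and 65.0%) and by Ddit4 (65.3% and 65.6%) lay above the Gp9-led and Camk2n1-led clusters and below the Rsad2-led one. In clusters led by markers of other cell types, cells led by the macrophage gene Mrc1 stood at 68.0% in week 0 replicate 1 and at 70.4% and 70.6% at week 5. The 17 cells of week 5 replicate 2 led by S100a6, Ms4a4b and Ccl5 stood at 79.4% (72.1% to 85.4%), with Psmb8 at 870 CPM. The 15 cells of week 5 replicate 1 led by the choroid plexus gene Ttr stood at 25.0% (16.4% to 35.4%).

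**Figure D3:**
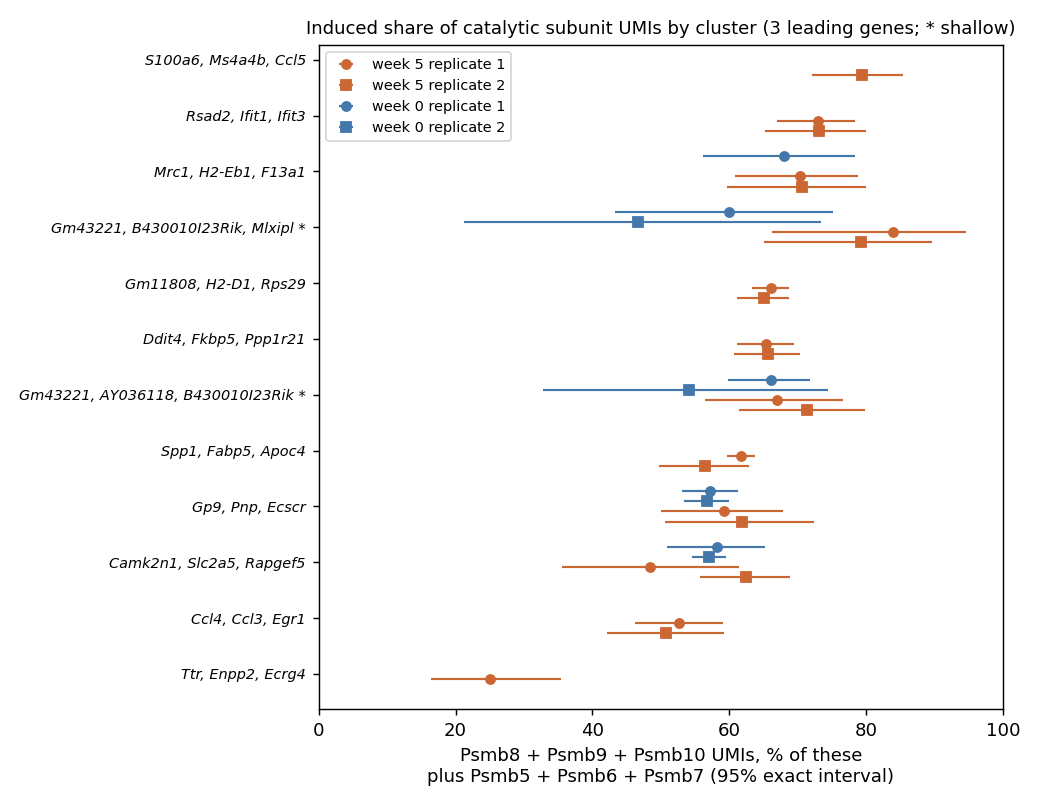
Share of Psmb8, Psmb9 and Psmb10 in the UMIs of the 6 catalytic subunits (horizontal axis, %), for each cluster and library with at least 15 cells; lines are 95% exact binomial intervals, which cover counting error only. The Rsad2-led cluster stands at 73.0% in both week 5 libraries and the Ttr-led cells at 25.0%; the shallow clusters, marked by a star, have wide intervals.

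Cells were also divided by their own interferon response, as UMIs of 25 interferon response genes, none of them a proteasome gene, per 1000 UMIs drawn from each cell with at least that many. Clusters led by other cell types were left out here. In week 5 replicate 1 the summed level of Psmb8, Psmb9 and Psmb10 was 399.7 CPM in cells with none of these UMIs, 447 with 1 or 2, 509 with 3 to 5 and 641 with 6 or more. In week 5 replicate 2 it was 374, 377, 479 and 632 CPM in the same order. At week 0 it was 312 and 342 CPM in replicate 1 and 335 and 325 CPM in replicate 2 with none and with 1 or 2, and 401 CPM in the 18 cells of replicate 2 with 3 to 5. The induced share in these week 0 groups was 60.0% and 60.2% in replicate 1 and 56.5%, 56.7% and 55.6% in replicate 2, while at week 5 it was 57.7%, 61.5%, 64.5% and 68.0% in replicate 1 and 63.5%, 58.3%, 66.5% and 74.1% in replicate 2. Whether the weeks differ in this was not tested. PA28 in the week 0 groups also rose in this order, at 268 and 320 CPM in replicate 1 and at 278, 302.5 and 430.5 CPM in replicate 2. At week 5 PA28 stood at 414, 460, 587 and 722 CPM in replicate 1 and at 321, 380, 449 and 665 CPM in replicate 2. The constitutive catalytic genes showed no such order at week 5, with 293, 280, 280 and 302 CPM in replicate 1 and 215, 270, 241 and 221 CPM in replicate 2.

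Taken gene by gene, 44 of the 49 had at least 20 UMIs over the outer groups in each week 5 library. Of these, 4 were more than 1.5-fold higher in the cells with 6 or more UMIs in both libraries, against 1.94% of 6898 genes: Psmb8, Psmb9, Psme1 and Psme2. Their log2 ratios, with 1 CPM added to each value, were 0.68 and 0.77 for Psmb8, 1.12 and 1.02 for Psmb9, 0.82 and 1.14 for Psme1 and 0.76 and 0.79 for Psme2. Psmb10 stood at 0.20 and 0.35. None of the 31 constitutive subunits passed that fold in both libraries in either direction (7.90% of all genes were that much lower), and their median was 0.00 and -0.12, against -0.23 and -0.17 for all genes. The cells with 6 or more were deeper, with a median of 8276 and 4533 UMIs against 5400 and 2647. They also had more of the disease-associated genes used below, at 87130 and 58530 CPM against 64740 and 30240 CPM. The part of either in these ratios was not tested. Within a library the cells share their source, so these are descriptions of 2 libraries and carry no test.

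Cells were divided instead by 19 genes of disease-associated microglia, again without the clusters led by other cell types. The induced share was 66.7%, 62.9% and 62.7% in week 5 replicate 1 with 0 to 14, 15 to 49 and at least 50 of them per 1000, and 65.4%, 63.9% and 62.0% in replicate 2. The order depended on those clusters in replicate 1: over all cells the shares were 61.2%, 63.0% and 62.9% there and 68.0%, 63.9% and 62.9% in replicate 2. At week 0, without the clusters, the shares with 0 to 14 and 15 to 49 were 62.2% and 56.6% in replicate 1. They were 58.3% and 55.15% in replicate 2. At week 5, also without the clusters, Psmb8, Psmb9 and Psmb10 summed to 472, 442 and 525 CPM in replicate 1. In replicate 2 they summed to 358.5, 451 and 476 CPM. PA28 was at 483, 464 and 588 CPM and at 373, 403 and 481 CPM. The constitutive catalytic sum was 235, 260 and 312 CPM and 190, 254 and 293 CPM, so in both libraries it was highest in the cells with most of these UMIs. The induced sum and PA28 were also highest in those cells in both libraries.

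**Figure D4:**
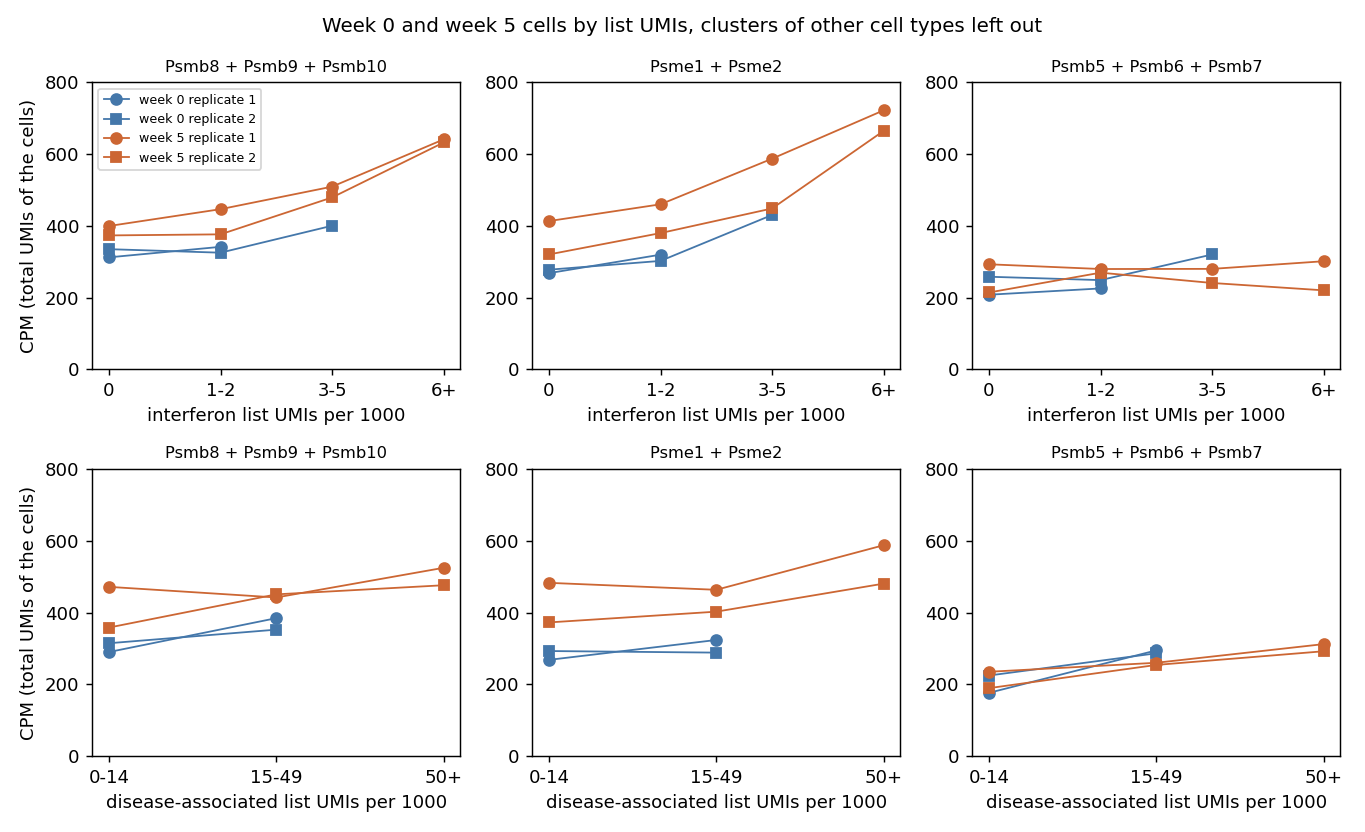
Summed CPM of the induced catalytic genes, PA28 and the constitutive catalytic genes (vertical axes from 0; CPM of all UMIs in each group of cells) in cells grouped by UMIs of the interferon list (top) or the disease-associated list (bottom) per 1000; points are groups of at least 15 cells of 1 library. In both week 5 libraries the induced genes and PA28 are highest in the top interferon group (641 and 632 CPM, 722 and 665 CPM), while the constitutive genes run from 280 to 302 CPM and from 215 to 270 CPM.

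Genes that work with the proteasome were read from lists of the pathway. Of 12 genes of MHC class I presentation, 4 rose and 0 fell, against 2.44% and 0.249% of all genes tested. Tap1, which overlaps Psmb9, was at 34.1 and 40.6 CPM in the week 0 libraries and at 79.0 and 87.4 CPM in those of week 5 (log2 fold change 1.14, SE 0.21, edgeR adjusted p = 0.0175). H2-K1 and H2-D1, the chains that hold the peptide, rose by log2 fold changes of 1.83 and 2.26 (SE 0.31 and 0.34), and Nlrc5, which drives class I genes, by 2.61 from few counts (4 to 9 UMIs at week 0). Tap2, the partner of Tap1, was at 54.5 and 78.6 CPM and then at 69.1 and 95.8 CPM, and the groups overlapped (log2 fold change 0.29, edgeR adjusted p = 0.719).

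Of 13 genes that carry the interferon signal, 0 fell, against 0.249% of all genes. Those that rose, against 2.44% of all genes, included Stat2 (log2 fold change 1.22, edgeR adjusted p = 0.0160), Irf7 (3.33, 0.000274) and Irf9 (0.91, 0.0468). Irf1, which is known to drive Psmb8 and Psmb9, was at 34.1 and 44.4 CPM in the week 0 libraries and at 49.2 and 39.9 CPM in those of week 5, and the groups overlapped. Of 18 proteasome partner genes tested, 0 passed in either direction, against 2.69% of all genes, and 0 had an unadjusted p under 0.05, against 13.7%. Pomp, the chaperone needed to mature the core, was at 187 and 230 CPM and then at 363 and 230 CPM (log2 fold change 0.51, edgeR adjusted p = 0.505).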

How the data were processed

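The values deposited by the authors are UMI counts of genes in cell barcodes; they are whole numbers with unequal totals and so carry no normalization. Per the submitters' processing notes, Cell Ranger 3.0.0, STAR, Seurat 4 and build mm10 were used. The choice of barcodes is not explained in these sources. Each of the 4 tables held 1000 barcodes and 2415001 to 6559032 UMIs. Genes missing from 1 table were set to 0 in it.

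The filter of 500 genes or more and a mitochondrial share up to 10% kept 3728 of 4000 cells, and scrublet (scanpy 1.11.5) marked 21 of them as doublets (0.563%), leaving 3707. Counts were summed per library and tested with edgeR 4.0.16 in R 4.3.3 (quasi-likelihood, TMM, filterByExpr, Benjamini-Hochberg over all genes, no covariates), after the code was tested on simulated data with known changes. DESeq2 1.42.0 and limma-voom (limma 3.58.1) were alternatives, beside other scalings and filters of genes and cells, thinned cells, left-out libraries and the replicate number as a block. Binomial intervals of shares cover counting error only; those of fold changes come from the edgeR fit and include the spread between libraries.

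Clusters came from 2000 variable genes without the proteasome genes, 30 principal components, 15 neighbours and Leiden at resolution 1 (leidenalg 0.10.2). Leading genes had the highest fold over the other clusters, with a UMI in at least 20% of the cluster's cells. A cluster was set aside as another cell type if its 10 leading genes held more markers of that type than of microglia, and as shallow if its median UMI count was under 0.5 of the 3634 of all cells with no leading microglia marker.

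The genes and lists were chosen with earlier results of these data known. Psmb8, Psmb9, Psmb10, Psme1, Psme2, their constitutive counterparts and any gene that passed were to be named in full, and other proteasome genes by class with the highest and lowest. Naming Psma5, Psmb1, Psmg4, Psmd4 and Psmd14 with values, the cluster rules, the edges of the groups of cells, the minimum of 15 cells, the motifs and the windows shown were settled after values were seen; one more motif, a stricter form of the first, was also looked at. Shfm1, a listed partner, had no row. The result of 1 gene of the interferon signal list is not reported here.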

Additional observations from a re-analysis of the deposited data

How the results depend on the processing

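Of the proteasome genes, 0 passed in the fit as reported, and 4 of the 16 alternatives called any. DESeq2 called 445 genes (3.96% of all genes), 2 of them proteasome genes, both of the 5 induced and PA28 genes. Without a gene filter 918 genes were called, 4 of them proteasome genes and 3 of the 5 (Psmb8, Psmb9, Psme1, and Psmg4 outside the 5). Under the same limit of 2996 genes in every library's cells, 501 genes were called and 3 proteasome genes, all of the 5. Thinned cells gave 184 genes and removal of the shallow clusters 107. Leaving out 1 library each gave 265 to 1341 genes, 0 to 11 proteasome genes, 0 to 4 of the 5 and 0 to 6 constitutive subunits. The median log2 fold change of the constitutive subunits was -0.069 with library size alone as the scaling, and -0.033 to 0.40 with 1 library left out. The median of the 5 genes ran from 0.55 to 1.08, and the difference of the log2 ratio from 0.22 to 0.43, above 0 under each alternative run. Adding the replicate number as a block gave 379 calls against 302 and 0 proteasome genes; equally numbered libraries did not deviate together (correlation -0.038), so the numbers do not pair them. The causes were not tested. Leaving out clusters was chosen after seeing the data.

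A sign other than in the fit as reported was found in 89 of 778 log2 fold changes, all uncalled (lowest adjusted p 0.656). With library size alone as the scaling, Psma1 -0.063, Psma2 -0.12, Psma3 -0.11, Psma6 -0.047, Psmc2 -0.23, Psmc3 -0.083, Psmc4 -0.15, Psmc5 -0.069, Psmc6 -0.0079, Psmd11 -0.17, Psmd12 -0.23, Psmd14 -0.11, Psmd4 -0.21, Psme3 -0.069, Psmf1 -0.17, Psmg3 -0.16. With limma-voom, Psmc2 -0.012, Psmd12 -0.0097. With no gene filter, Psmd12 -0.0051. With a common limit of 2996 genes per cell, Psma2 -0.0072, Psmc4 -0.045, Psmd11 -0.006, Psmd12 -0.015, Psmd4 -0.051, Psme2b 0.11. With cells thinned to 1000 UMIs, Psma2 -0.22, Psma6 -0.31, Psmc2 -0.29, Psmd11 -0.095, Psmd5 0.65, Psmd6 0.32, Psme3 -0.084, Psmg1 -0.029, Psmg3 -0.037. With cells with 2 or more UMIs of other types' markers left out, Psma2 -0.19, Psma6 -0.11, Psmc1 0.075, Psmc2 -0.039, Psmc4 -0.11, Psmd11 -0.063, Psmd5 0.16, Psme4 0.092, Psmg3 -0.024. With clusters led by other cell types left out, Psmc1 0.019, Psmc2 -0.021, Psmd1 0.014, Psmd4 -0.027, Psme2b 0.025. With the shallow clusters left out, Psmc2 -0.029, Psmd1 0.016, Psmd12 -0.10, Psmd4 -0.061, Psme2b 0.15, Psmf1 -0.13. With the replicate block, Psmc2 -0.0022, Psmd12 -0.0057. With 1 library left out, the lowest and highest values of genes whose sign turned were Psma2 -0.25 to 0.46, Psma6 -0.16 to 0.53, Psmb3 -0.033 to 0.57, Psmb4 -0.037 to 0.81, Psmc1 -0.22 to 0.16, Psmc2 -0.16 to 0.20, Psmc3 -0.082 to 0.40, Psmc4 -0.069 to 0.25, Psmc5 -0.054 to 0.40, Psmd1 -0.19 to 0.16, Psmd10 -0.25 to 0.20, Psmd11 -0.087 to 0.21, Psmd12 -0.15 to 0.18, Psmd13 -0.34 to 0.21, Psmd14 -0.25 to 0.48, Psmd3 -0.50 to 0.15, Psmd4 -0.20 to 0.27, Psmd5 -0.16 to 0.042, Psmd6 -0.27 to 0.11, Psme3 -0.20 to 0.49, Psmf1 -0.17 to 0.39, Psmg1 -0.058 to 0.79, Psmg3 -0.0050 to 0.15.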
